A study of Mus musculus with 14 samples.

Results

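Liver is both a target of growth hormone and the main source of the insulin-like growth factor IGF1 in blood, and 10 genes of this axis were followed in spontaneous hepatocellular carcinoma and normal liver of the mouse. They were the growth hormone receptor Ghr, its effector Stat5b, the ligand Igf1, the IGF-carrying proteins Igfals, Igfbp1, Igfbp2, Igfbp3 and Igfbp4, and the feedback inhibitors Socs2 and Cish. The genes were chosen by symbol, with the RefSeq transcript rows of each gene summed, and all 10 were found among 30436 genes and unnamed transcript rows. All 10 passed the filter on low counts, which kept 12300 features for testing.

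RNA sequencing covered 14 liver samples of male C3HeB/FeJ mice, an inbred strain prone to spontaneous liver tumours, aged 18 months. The labels mark 6 tumours as Grow and 4 as Regress, without saying how either was scored, and 4 samples as normal liver. Grow 1 and 5 had received the solvent DMSO. Grow 2, 3 and 4 had received 85 mg/kg SAHA (suberoylanilide hydroxamic acid, a histone deacetylase inhibitor) with 22 mg/kg TMZ (temozolomide, a DNA alkylating drug), and Grow 6 had received 100 mg/kg SAHA. Regress 1 and 3 had received 31 mg/kg TMZ, Regress 2 phosphate citrate buffer and Regress 4 DMSO, and all 4 normal livers had received the buffer. Tumours were first looked for at 10 months of age, and injections were given on 5 days of each 28-day cycle over 6 cycles. Regress 2 was the only tumour given buffer alone, so tumour and solvent or drug cannot be fully told apart.

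Library totals ran from 4707063 to 13394301 estimated counts. The 8 hepatocyte markers were detected in every library. Their summed level was 47598 to 230795 CPM (counts per 1000000, scaled to library size) in tumours and 58027 to 97960.2 CPM in normal livers. The medians were 165724 and 71249.5 CPM. Grow 3 and Grow 4 (47598 and 47900 CPM) lay below every normal liver. A Regress tumour lay within the normal range at 80278 CPM, and all other tumours lay above it, at 161094 CPM or more. By gene, 2 of the 8 markers had a log2 fold change of tumours over normal liver above 0, and the median was -0.34. One code is shared by Regress 2 and Normal 4, with no word in the labels on its meaning or on which samples share an animal. The p-values therefore describe only how far these samples vary, which may in part be technical. Grow 3 and Grow 4 were the most alike pair of any group, with a median absolute log2 ratio of 0.14 between them, yet differed by more than sampling noise and were kept as 2 samples.

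As background, growth hormone binding to its receptor activates the kinase JAK2, which phosphorylates STAT5B. STAT5B then enters the nucleus and raises transcription of Igf1, Igfals, Socs2 and Cish, and the SOCS2 and CIS proteins feed back on the receptor. In blood most IGF1 is carried in a complex with IGFBP3 and the acid-labile subunit encoded by Igfals. Transcription of Igfbp1 in hepatocytes is repressed by insulin through the forkhead factor FOXO1, and its protein binds free IGF1.

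Promoter windows of 250 bases before and 50 after an annotated start were held for 9 of the 10 genes in a RefSeq table of build GRCm38.p6. Socs2 was the exception. The windows shown are those with a match to a STAT5-type motif (TTCNNNGAA, a palindrome that reads the same on either strand) or to an insulin response or forkhead motif (CAAAACA and GTAAACA, searched on both strands). They belong to Igfbp1, Igfals and Cish. Capitals mark the match, all are on the plus strand, and positions count from the annotated start as base 1.
Igfbp1, chr11:7197537-7197836: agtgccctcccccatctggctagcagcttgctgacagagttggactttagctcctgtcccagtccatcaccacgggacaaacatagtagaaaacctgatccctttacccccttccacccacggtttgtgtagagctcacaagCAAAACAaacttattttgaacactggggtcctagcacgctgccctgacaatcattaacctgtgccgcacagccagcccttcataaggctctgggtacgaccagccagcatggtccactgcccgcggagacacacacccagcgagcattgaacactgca
Igfals, first window, chr17:24877594-24877893: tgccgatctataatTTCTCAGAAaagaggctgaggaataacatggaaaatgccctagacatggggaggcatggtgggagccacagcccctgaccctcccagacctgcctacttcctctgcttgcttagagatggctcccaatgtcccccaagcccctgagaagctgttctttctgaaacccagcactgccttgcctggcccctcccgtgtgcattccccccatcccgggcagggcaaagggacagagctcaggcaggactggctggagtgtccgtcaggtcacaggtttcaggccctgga
Igfals, second window, chr17:24877981-24878280: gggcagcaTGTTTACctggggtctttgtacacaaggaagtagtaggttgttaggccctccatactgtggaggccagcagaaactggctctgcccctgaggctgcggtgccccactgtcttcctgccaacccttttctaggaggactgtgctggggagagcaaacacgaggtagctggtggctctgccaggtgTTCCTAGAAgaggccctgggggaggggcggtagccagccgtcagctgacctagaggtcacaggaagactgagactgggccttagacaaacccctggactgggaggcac
Cish, chr9:107296409-107296708: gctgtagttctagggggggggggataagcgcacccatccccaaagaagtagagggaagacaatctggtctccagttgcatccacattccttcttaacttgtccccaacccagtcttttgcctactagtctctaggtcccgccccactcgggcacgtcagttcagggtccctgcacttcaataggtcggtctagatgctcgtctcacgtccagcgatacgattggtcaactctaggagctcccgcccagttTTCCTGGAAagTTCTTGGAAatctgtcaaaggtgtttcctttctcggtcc
The Igfbp1 window holds CAAAACA at -108 to -102. The Igfals windows hold TTCTCAGAA at -236 to -228 of one start and TTCCTAGAA at -58 to -50 of another, where the second window also holds TGTTTAC, the reverse complement of GTAAACA, at -242 to -236. The Cish window holds a pair of STAT5-type motifs just inside the transcript, TTCCTGGAA at 1 to 9 and TTCTTGGAA at 12 to 20. Over 32851 promoter windows of the same length, 8.30% held the STAT5-type letters, 6.28% CAAAACA and 3.65% GTAAACA. The third Igfals window (chr17:24878497-24878796) and the windows of Ghr, Igf1, Igfbp2, Igfbp3, Igfbp4 and Stat5b held none of these letters, and a match is a description of the sequence only.

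The comparison of tumours with normal liver asks how the axis differs in these tumours. Igfbp1 was higher and Igfals lower in tumours, and Igf1 was below the normal range in every tumour without passing edgeR's test. Tumour means were 34.1 times the normal mean for Igfbp1, 0.219 times for Igfals, 0.388 times for Igf1 and 0.432 times for Ghr. With edgeR's quasi-likelihood test and Benjamini-Hochberg adjustment over all features, 2 of the 10 genes had an adjusted p under 0.05, against 2.32% of all features. Of these, 1 was higher, against 1.59% of features, and 1 lower, against 0.732%. DESeq2 called 3 of the 10 (Igf1, Igfals and Igfbp1), against 8.58% of features, and limma-voom 1, against 1.03%. An unadjusted p under 0.05 was reached by 4 of the 10 (Ghr, Igf1, Igfals and Igfbp1), against 18% of features. Values of all tumours lay below those of all normal livers for 2 of the 10 genes, against 0.935% of features, and above them for 1 of the 10, against 1.09%. The median log2 fold change of the 10 genes was -0.37, beside 0.01 over all features.

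**Figure D1:**
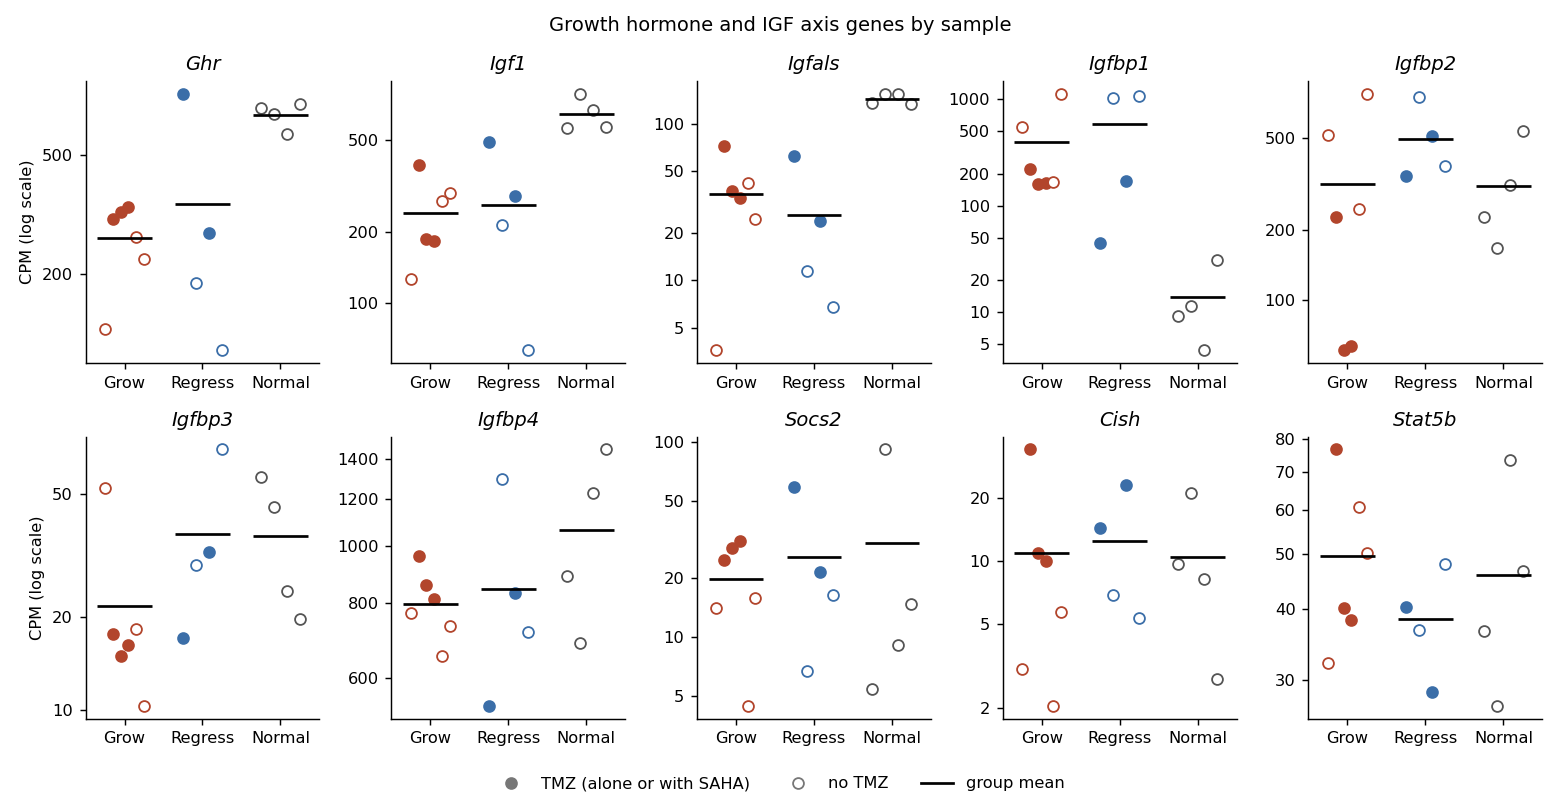
Level of each gene in each library, in CPM on a log axis that differs between panels, for 6 Grow tumours, 4 Regress tumours and 4 normal livers. Filled points received TMZ, open points did not, and bars are group means. Igfals and Igf1 lie below normal in all tumours and Igfbp1 above, while Ghr of Regress 1 (804 CPM) lies above the normal livers.

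Ghr, the receptor, stood at 131 CPM at the lowest, 286 at the median and 336 at the highest in the 6 Grow tumours. In Regress 1 to 4 it stood at 804, 187, 273 and 111 CPM, and in Normal 1 to 4 at 723, 688, 588 and 741 CPM. Regress 1 was thus above the highest normal liver, and the other 9 tumours were below the lowest. The log2 fold change of tumours over normal liver was -1.18 ± 0.40 (SE), and it did not pass the test (edgeR adjusted p = 0.120). That outcome depended on Regress 1 and on the model. Without Regress 1 the log2 fold change was -1.61 and the edgeR adjusted p 0.00645. With Regress 1 kept and the drugs as covariates, the log2 fold change was -1.82 (edgeR adjusted p = 0.0186). Leaving out Regress 1 also moved the share of all features called to 7.84%.

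Stat5b, the main STAT5 protein of hepatocytes, ranged from 32.1 CPM over a median of 45.2 to 76.6 CPM in Grow. Its values were 40.4, 36.8, 28.6 and 48.1 CPM in Regress 1 to 4 and 36.5, 27.0, 73.4 and 46.7 CPM in Normal 1 to 4. The groups overlapped, and the log2 fold change was -0.07 ± 0.28 (edgeR adjusted p = 0.960), a sign that turned with removal of the length trend (0.031). Stat5a, a near-identical paralog, may share reads with Stat5b, so both are uncertain.

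Igf1, the liver's circulating growth factor, stood at 126 CPM at the lowest, 229 at the median and 390 at the highest in Grow. It was at 487, 215, 285 and 62.5 CPM in Regress 1 to 4, and at 559, 785, 672 and 564 CPM in Normal 1 to 4. All 10 tumours were below the lowest normal liver. The log2 fold change was -1.36 ± 0.39 and fell short of the threshold with edgeR (adjusted p = 0.0761), while DESeq2 called it (adjusted p = 0.0221), as did edgeR with the drugs as covariates (0.0485). Here too Regress 1, the tumour with the highest Igf1, bore on the call, which without it was made at an adjusted p of 0.0200 and a log2 fold change of -1.60. In these bulk samples, fewer cells of a type and less RNA per cell cannot be told apart.

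Igfals, which encodes the acid-labile subunit that prolongs the life of IGF1 in blood, had the most even level among normal livers, at 136, 154, 155 and 134 CPM. Grow tumours ranged from 3.59 over a median of 35.5 to 72.6 CPM, against that range of 134 to 155 CPM in normal livers. Regress 1 to 4 stood at 61.9, 11.5, 23.9 and 6.77 CPM. No tumour reached even the level of the lowest normal liver, and Grow 1, the lowest, rested on 49 reads. The log2 fold change was -2.25 ± 0.55 (edgeR adjusted p = 0.0465). This call was close to the threshold: it was not made with limma-voom (adjusted p = 0.0833), and it was lost on leaving out any 1 normal liver, with adjusted p from 0.0935 to 0.140, Grow 3, 4, 5 or 6 (0.0568 to 0.0763) or Regress 2, 3 or 4 (0.0554 to 0.0823). It was made under 4 of 10 other settings and without 3 of the 14 libraries, and the fold change kept its sign in all of these.

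Igfbp1, the binding protein that insulin represses, was the gene furthest from normal. Grow tumours ranged from 161 over a median of 194 to 1130 CPM, Regress 1 to 4 stood at 44.7, 1034, 169 and 1081 CPM, and Normal 1 to 4 stood at 9.13, 11.4, 4.33 and 30.5 CPM. Every tumour was above every normal liver, and Grow 1, Grow 6, Regress 2 and Regress 4 were all at 553 CPM or more. The log2 fold change was 5.12 ± 1.04 (edgeR adjusted p = 0.0290), with 1.81e-09 by DESeq2 and 0.0144 by limma-voom. The edgeR call was lost without Normal 1, 2, 3 or 4 (adjusted p from 0.0739 to 0.115), and was made under 8 of 10 other settings, while the log2 fold change stayed between 4.79 and 5.86 when any single library was left out.

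**Figure D2:**
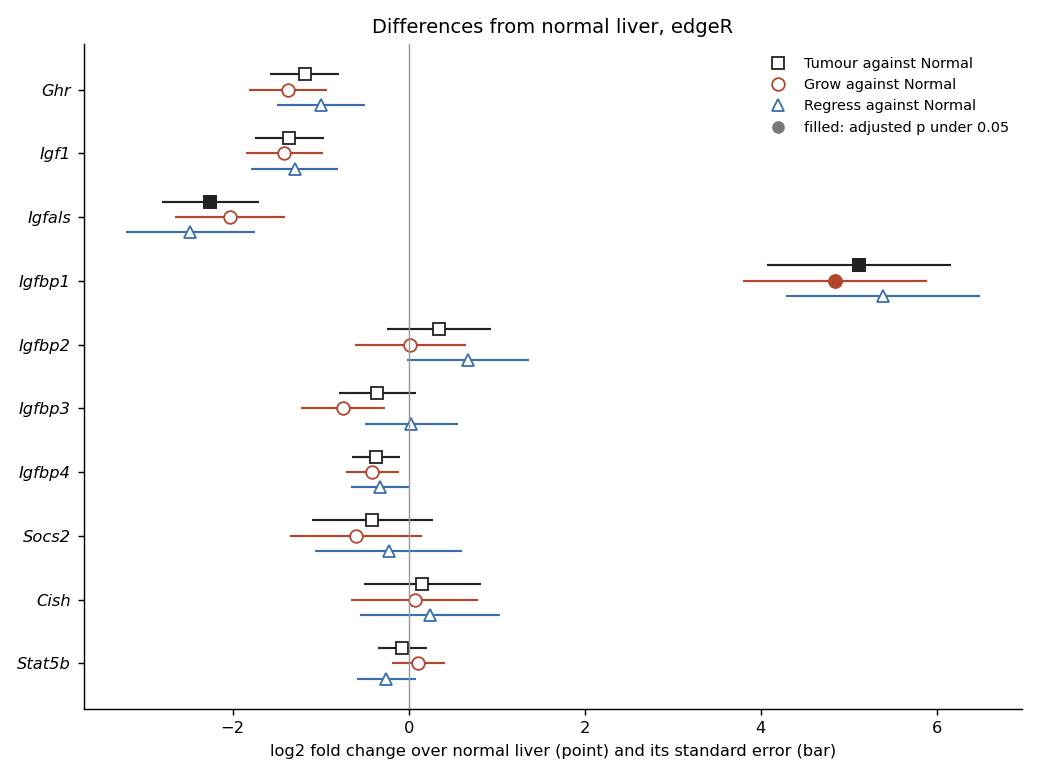
Log2 fold change over normal liver by edgeR for each gene, in all tumours, Grow tumours and Regress tumours, with bars of 1 standard error. Filled points have an adjusted p under 0.05: Igfbp1 in all tumours and in Grow, and Igfals in all tumours.

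The other binding proteins did not pass the test. Igfbp2, abundant in fetal liver and also present in adult liver, ranged from 60.5 over a median of 238 to 777 CPM in Grow. It stood at 342, 752, 511 and 380.2 CPM in Regress 1 to 4 and at 228, 167, 312 and 537 CPM in Normal 1 to 4. Grow 3 and 4 were below the lowest normal liver, Grow 6 and Regress 2 above the highest, and the log2 fold change was 0.35 ± 0.59 (edgeR adjusted p = 0.866). Igfbp3, the carrier in the ternary complex, ranged from 10.3 over 17.0 to 52.6 CPM in Grow. It stood at 17.1, 29.5, 32.4 and 70.0 CPM in Regress 1 to 4 and at 56.9, 45.6, 24.4 and 19.8 CPM in Normal 1 to 4. In mouse liver Igfbp3 is known mainly from non-parenchymal cells, and 6 of the 10 tumours were below its lowest normal value, with a log2 fold change of -0.36 ± 0.44 (edgeR adjusted p = 0.784). Igfbp4, a binding protein of many tissues, ranged from 652 over 792 to 959.7 CPM in Grow, against 686 to 1453 CPM in normal livers. In Regress 1 to 4 it stood at 538, 1293, 834 and 715 CPM, and 8 of 10 tumours lay within the normal range (log2 fold change -0.37 ± 0.27, edgeR adjusted p = 0.567).

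Divided by transcript length, so that genes can be compared, Igfbp1 took a larger part of the 4 binding protein transcripts in every tumour than in any normal liver. Igfbp1 made up 31.6% ± 9.51 of the summed level per length of Igfbp1 to Igfbp4 in Grow (SD, n = 6), 30.6% ± 23.9 in Regress (n = 4) and 1.64% ± 0.891 in normal liver (n = 4). Its lowest share in a tumour was 6.69%, in Regress 1, and its highest in a normal liver was 2.45%. The share of Igfbp4 was 37.9% ± 18.8 in Grow, 24.5% ± 7.73 in Regress and 52.3% ± 4.16 in normal liver, and that of Igfbp3 was at most 5.65% in any library. These shares restate the levels given above and were not tested.

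**Figure D3:**
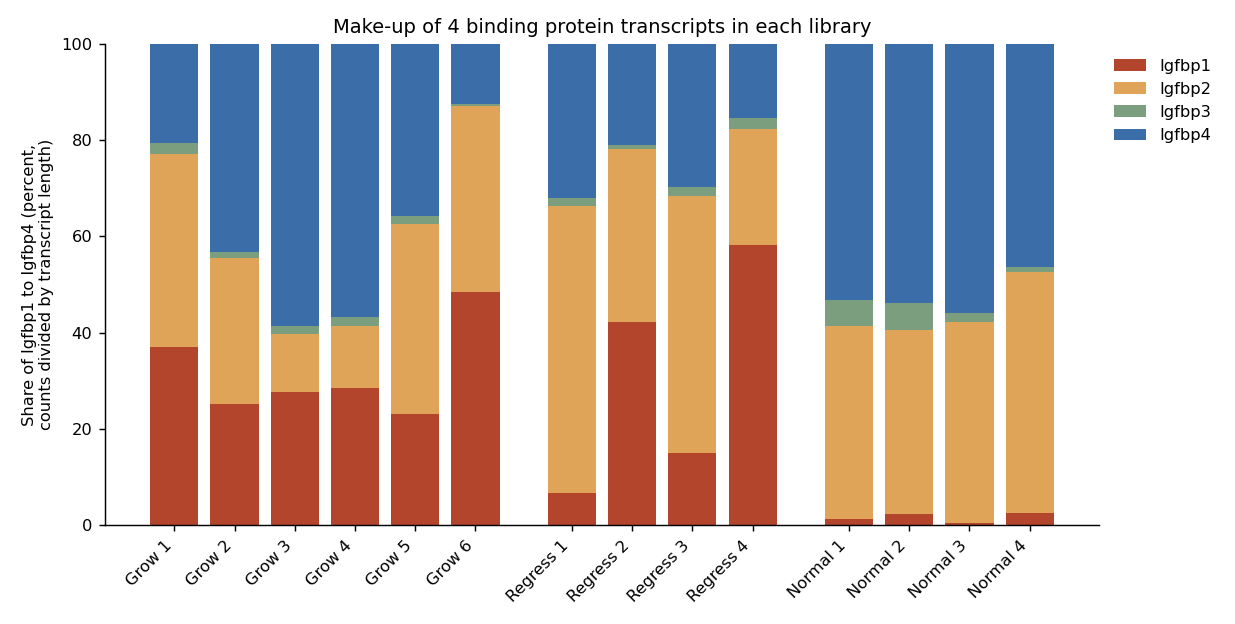
Share of Igfbp1, Igfbp2, Igfbp3 and Igfbp4 in their summed level per transcript length, in percent, in each of 6 Grow, 4 Regress and 4 normal libraries. Igfbp1 takes 6.69% to 58.3% in tumours and 0.500% to 2.45% in normal livers.

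In levels per length, the order in Grow began with Igfbp1 (262 CPM per kb), Igfbp2 (241) and Igfbp4 (208), whose values overlapped, and the next, Ghr (96.9) and Igf1 (96.0 CPM per kb), were below all values of Igfbp4. Igfals followed at 13.6 CPM per kb, below all values of Igf1, and then Socs2, Stat5b, Igfbp3 and Cish at 9.85 to 3.84 CPM per kb, each overlapping its neighbour. In Regress all neighbours overlapped, from Igfbp1 (382 CPM per kb) and Igfbp2 (379.8) down to Stat5b (7.54) and Cish (4.35). In normal liver Igfbp4 (278 CPM per kb), Igf1 (253), Igfbp2 (238) and Ghr (229) led and overlapped each other in turn. Igfals (55.2 CPM per kb) was below all values of Ghr and above Socs2 on average, with overlap, and Igfbp1 was eighth of the 10 at 9.08 CPM per kb.

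The feedback inhibitors varied within each group. Socs2 ranged from 4.45 over a median of 20.4 to 31.2 CPM in Grow, stood at 58.5, 6.72, 21.6 and 16.5 CPM in Regress 1 to 4, and at 5.44, 91.6, 9.11 and 14.8 CPM in Normal 1 to 4. Normal 2 alone held the highest value, and the sign of the log2 fold change of tumours over normal liver (-0.41 ± 0.69, edgeR adjusted p = 0.862) turned without it, to 1.202. Cish ranged from 2.06 over 7.87 to 33.9 CPM in Grow, stood at 14.4, 6.92, 22.9 and 5.36 CPM in Regress 1 to 4, and at 9.65, 21.0, 8.22 and 2.76 CPM in Normal 1 to 4. The groups overlapped (log2 fold change 0.16 ± 0.67, edgeR adjusted p = 0.963). With the drugs as covariates, the log2 fold change of Cish was -1.39 and did not pass either (edgeR adjusted p = 0.145).

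Among the tumours given neither drug (Grow 1 and 5, Regress 2 and 4), edgeR called Ghr, Igf1 and Igfals lower and Igfbp1 higher than in normal liver. Their log2 fold changes were -1.99 for Ghr (edgeR adjusted p = 0.0132), -1.95 for Igf1 (0.0373), -3.33 for Igfals (0.0179) and 5.47 for Igfbp1 (0.00468). In that fit 4 of the 10 genes were called, against 7.5% of all features. Socs2 (-1.53, adjusted p = 0.399) and Cish (-1.38, 0.194) did not pass. Whether these tumours differ from the treated ones in this respect was not tested here.

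Taken apart by their label, the Grow tumours alone had 1 of the 10 genes called against normal liver, against 1.76% of features, or 1.12% higher and 0.642% lower. DESeq2 called 4 of the 10 (Ghr, Igf1, Igfals and Igfbp1), against 8.24% of features. Limma-voom called 1, against 0.756%, and 4 had an edgeR unadjusted p under 0.05, against 16.6%. Igfbp1 was higher in Grow, with a log2 fold change of 4.85 ± 1.05 (edgeR adjusted p = 0.0367). This call was lost without any 1 normal liver (adjusted p from 0.0803 to 0.118) and without Grow 1, 5 or 6 (0.0568 to 0.0740). The log2 fold changes of Igfals (-2.03 ± 0.62), Igf1 (-1.41 ± 0.44) and Ghr (-1.37 ± 0.44) had edgeR adjusted p of 0.0992, 0.1001 and 0.116. All Grow values lay below all normal values for these 3 of the 10 genes, against 4.28% of features, and above for 1 of 10, against 5.27%.

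In Regress tumours against normal liver, edgeR called 0 of the 10 genes, against 0.0244% of features, all of them higher (0.0244% higher and 0% lower). At an unadjusted p under 0.05 there were 3 of 10 (Igf1, Igfals and Igfbp1), against 16.2% of features. DESeq2 called 2, against 5.79%, and limma-voom 0, against 0%. The DESeq2 calls were Igfbp1 (DESeq2 adjusted p = 3.69e-07) and Igfals (0.0154). The log2 fold changes were 5.39 ± 1.10 for Igfbp1 (edgeR adjusted p = 0.0510), -2.48 ± 0.73 for Igfals (0.112), -1.30 ± 0.49 for Igf1 (0.209) and -0.99 ± 0.50 for Ghr (0.346). All Regress values lay below all normal values for 2 of the 10 genes, against 3.2% of features, and above for 1 of 10, against 2.72%. Without Regress 1, edgeR called 3 of the 10 genes, against 5.28% of features. These were Ghr (log2 fold change -1.85, adjusted p = 0.0174), Igfals (-3.38, 0.0233) and Igfbp1 (5.77, 0.00798). Grow and Regress were compared with the same 4 normal livers.

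Where Regress and Grow tumours were set directly against each other, no gene of the axis passed the test, and edgeR called 0 of the 10, against 0% of features. An unadjusted p under 0.05 was reached by 0 of the 10, against 10% of features, and DESeq2 (0.252% of features) and limma-voom (0%) called 0 each. No gene had separate ranges, against 0.374% of features higher and 0.545% lower in Regress. The nearest was Igfbp3, with 37.3 ± 22.8 CPM in Regress (SD, n = 4) and 21.7 ± 15.4 CPM in Grow (n = 6), a log2 fold change of 0.78 ± 0.48 (edgeR adjusted p = 0.516).

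Tumours given TMZ, alone or with SAHA, were compared with tumours given none, with the group in the model. Ghr, Socs2 and Cish had higher values in all 5 TMZ tumours than in all 5 others, but no gene of the axis passed the test. EdgeR called 0 of the 10, against 0% of features, limma-voom 0, against 0.0163%, and DESeq2 3 (Ghr, Igfbp1 and Cish), against 3.77%, with no adjusted p given for Socs2. At an edgeR unadjusted p under 0.05 there were 6 of 10 (Ghr, Igfals, Igfbp1, Igfbp2, Socs2 and Cish), against 13.9% of features. The 3 genes with all TMZ values above the others compare with 0.78% of features, and 0 of 10 had all values below, against 0.967%. TMZ was given with SAHA in all 3 Grow tumours that received it, so in Grow the 2 drugs cannot be told apart. In both Regress tumours it was given alone. Grow 3 and 4, the most alike pair, count as 2 of the 5 TMZ tumours. Hepatocyte markers summed to 178689, 47598 and 47900 CPM in Grow 2 to 4, and to 80278 and 168987 CPM in Regress 1 and 3. Without TMZ they ran from 161094 to 230795 CPM. Cholangiocyte markers were at 55.1, 32.1, 30.9, 30.1 and 345 CPM in the same order, against 244 to 613 CPM without TMZ. They include Spp1, which is also in the list of recruited monocyte and macrophage markers. The part of cell make-up in the TMZ comparison was not tested.

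Cish stood at 33.9, 10.98 and 10.02 CPM in the Grow tumours with TMZ, against 3.08, 2.06 and 5.72 CPM in those without. In Regress it stood at 14.4 and 22.9 CPM with TMZ, against 6.92 and 5.36 CPM without, so the ranges were separate in both groups. The log2 fold change was 2.05 ± 0.52 (edgeR unadjusted p = 0.00149, adjusted p = 0.117). Socs2 stood at 24.9, 28.8 and 31.2 CPM with TMZ against 14.1, 4.45 and 15.9 CPM without in Grow, and at 58.5 and 21.6 CPM against 6.72 and 16.5 CPM in Regress. Its log2 fold change was 1.49 ± 0.67 (edgeR adjusted p = 0.345). Both genes encode inhibitors that act on the receptor complex.

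Ghr stood at 306, 322 and 336 CPM with TMZ against 131, 267 and 225 CPM without in Grow, and at 804 and 273 CPM against 187 and 111 CPM in Regress. The log2 fold change was 1.12 ± 0.36 (edgeR adjusted p = 0.201), and 0.70 without Regress 1. Igfals had separate ranges in Regress, at 61.9 and 23.9 CPM with TMZ against 11.5 and 6.77 CPM without, but not in Grow (log2 fold change 1.51 ± 0.52, edgeR adjusted p = 0.237). Igfbp1 had the opposite sign, at 222, 161 and 162 CPM with TMZ against 553, 167 and 1130 CPM without in Grow, and at 44.7 and 169 CPM against 1034 and 1081 CPM in Regress. Grow 5, given DMSO, was as low as the TMZ tumours, and the log2 fold change was -2.37 ± 0.63 (edgeR adjusted p = 0.135). With Grow 2 left out it passed the test (edgeR adjusted p = 0.0450). That fit called 737 features in all, against 0 with every library kept. Without any single library the adjusted p of Igfbp1 ran from 0.0450 to 0.343. Igfbp2 was at -1.45 ± 0.54 (0.259), Igf1 at 0.67 ± 0.42 (0.471) and Igfbp3 at -0.85 ± 0.43 (0.397), while Igfbp4 (-0.05 ± 0.30) and Stat5b (-0.05 ± 0.31) were near 0. Igfbp2 had separate ranges in Grow, at 60.5 to 229 CPM with TMZ against 246 to 777 CPM without, but not in Regress. Ranges of Igf1 were separate in Regress only and those of Igfbp4 in Grow only, each higher with TMZ.

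**Figure D4:**
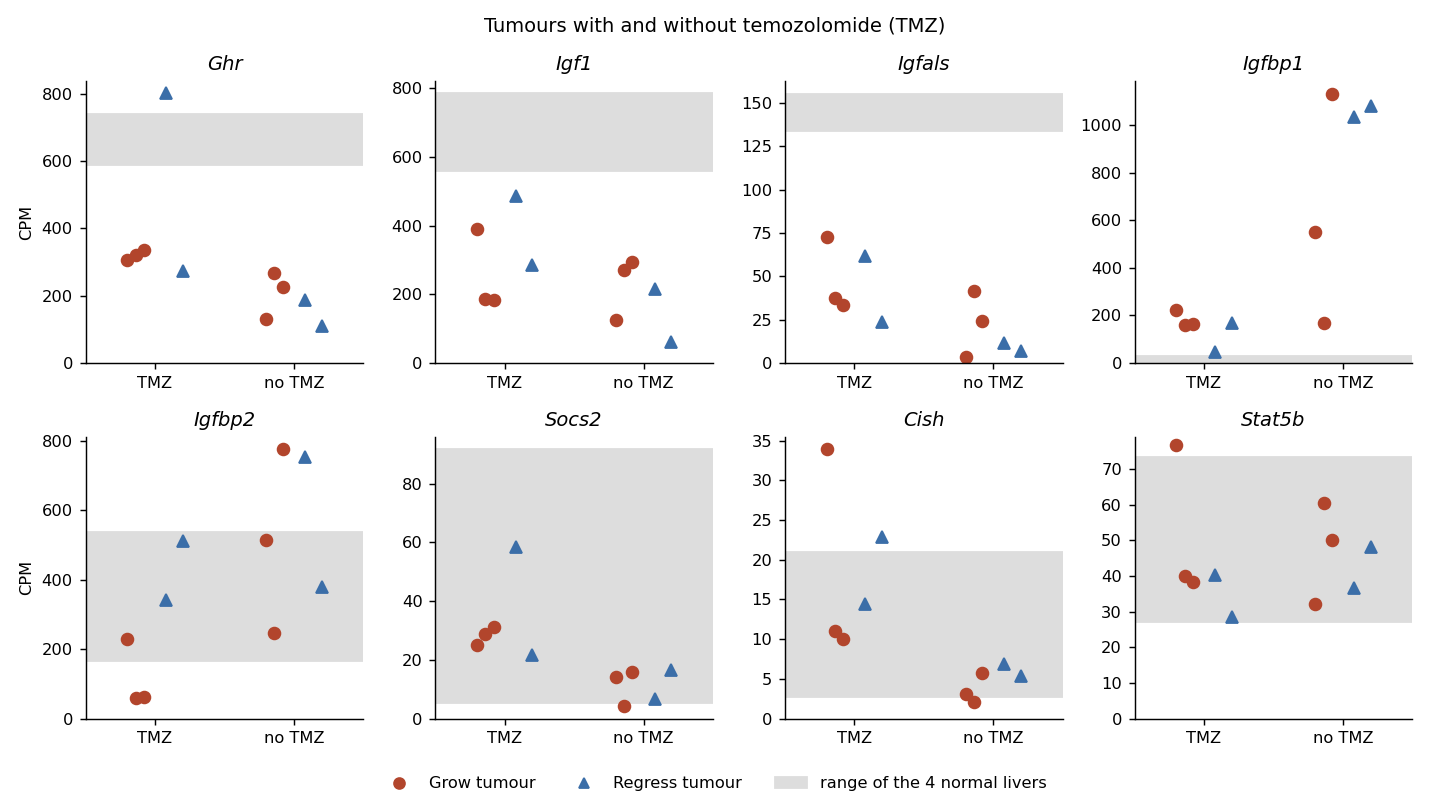
Level in CPM of 8 of the genes in tumours given TMZ (left in each panel) and tumours given none (right), with Grow as circles, Regress as triangles and the range of the 4 normal livers in grey. For Ghr, Socs2 and Cish the 5 TMZ tumours lie above the 5 others, and Igfbp1 of Grow 5 without TMZ (167 CPM) lies among the TMZ values.

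SAHA could be compared only within Grow, in 4 tumours with it (3 of them with TMZ) and 2 without. EdgeR called 0 of the 10 genes, against 0% of features, and DESeq2 (0.423% of features) and limma-voom (0%) called 0 each. An unadjusted p under 0.05 was reached by 2 of 10, against 2.64% of features: Cish at a log2 fold change of 2.54 ± 0.90 and Igfbp3 at -1.26 ± 0.55, both with an adjusted p of 0.9999. Values with SAHA lay above those without for 2 of the 10 genes, against 5.85% of features, and below for 1 of 10, against 5.57%. Grow 6, given SAHA without TMZ, had 5.72 CPM of Cish and 15.9 CPM of Socs2, each the highest of the 3 Grow tumours without TMZ.

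Ghr is measured as a pair of RefSeq transcripts. The longer, of 4175 bases, encodes the receptor of 650 residues, and the shorter, of 1171 bases, encodes a protein of 297 residues. In mouse the short form is the secreted growth hormone binding protein, made by alternative splicing. The short transcript took 14.9% over a median of 18.7% to 26.5% of Ghr counts in Grow, 23.5%, 28.2%, 32.1% and 17.3% in Regress 1 to 4, and 22.4%, 14.6%, 12.2% and 11.7% in Normal 1 to 4. Normal 1 lay among the tumours and the ranges overlapped. The mean share was 22.1% ± 5.80 in tumours (SD, n = 10) and 15.2% ± 4.98 in normal liver (n = 4), a difference of 6.91 percentage points (exact permutation test, two-sided p = 0.0559, 0.0857 adjusted over the 3 comparisons). Per transcript length the short form took 38.4% to 56.3% in Grow, 52.2%, 58.3%, 62.8% and 42.8% in Regress 1 to 4, and 50.8%, 37.9%, 33.0% and 32.0% in Normal 1 to 4, again with overlap. On that scale the mean was 49.6% ± 8.31 in tumours and 38.4% ± 8.62 in normal liver (exact permutation p = 0.0420, 0.0857 adjusted over the 3 comparisons). As a share of counts it was 25.3% ± 6.36 in Regress (exact permutation p = 0.0571) and 20.02% ± 4.799 in Grow (exact permutation p = 0.171), each against the same normal livers. This measure was chosen after the transcript rows were seen, and estimated counts can be split unevenly between transcripts that share exons.

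Of the other genes measured as several transcripts, Igf1 had 4. Its longest, of 7052 bases and 153 residues, took 55.9% of Igf1 counts over all libraries, and transcripts of 1673 and 1344 bases, of 159 and 137 residues, took 27.5% and 14.3%. These differ in their first and last coding exons and in the signal or E peptide, not in the mature hormone. The 1344-base form took 10.997% to 27.8% in Grow, 0.0054% to 11.2% in Regress and 4.05% to 34.1% in normal liver, so the groups overlapped against normal liver. Socs2 came to 82.2% from a transcript of 2222 bases, with 9.02% and 8.41% from forms of 948 and 2195 bases, all encoding 198 residues. Stat5b was split 75.8% to 24.2% between transcripts of 5062 and 5213 bases with the same 786 residues. The other 6 genes had 1 transcript row each.

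Genes of the surrounding pathway did not pass edgeR's test in any comparison. The list held 45 genes: other IGF and insulin ligands, receptors and binding proteins, proteases that cut IGF binding proteins, growth hormone signalling, insulin signalling and FOXO1 targets, of which 39 were tested. EdgeR called 0 of the 39 in each of the 6 comparisons, against 2.32% of features for tumours, 1.76% for Grow and 0.0244% for Regress against normal liver and 0% in the others. Limma-voom also called 0, against at most 1.03%. DESeq2 called 3 of the 39 for tumours against normal liver (Pck1, Pik3r1 and Prlr), against 8.58% of features. For Grow it called 3 (Igf2, Igfbp5 and Prlr), against 8.24%, and for Regress 1 (Pik3r1), against 5.79%. For TMZ it called 2 (Grb10 and Shc1), against 3.77%. None of these counts sets the list apart from all features. Igf2 rested on 1 to 3 reads in normal livers and on 2 to 52 reads in Grow. At an unadjusted p under 0.05, edgeR had 5 of the 39 for tumours, against 18% of features. The median log2 fold change in tumours was -0.10 over the 39 genes. The genes nearest to the threshold were picked by their values. Pik3r1, the regulatory subunit of PI3 kinase, had a log2 fold change of -1.07 ± 0.29 (edgeR adjusted p = 0.0626), and Prlr, the prolactin receptor that also signals through STAT5, one of -1.53 ± 0.47 (0.0907). Of the 7 insulin-repressed FOXO1 targets, 3 had a log2 fold change above 0 in tumours and the median was -0.11. They ranged from -1.81 ± 0.59 for Pck1, a gluconeogenic enzyme (edgeR adjusted p = 0.112), to 0.72 ± 0.54 for Irs2, an insulin receptor substrate (0.577), with Sesn3, a stress-induced sestrin, at 0.65 ± 0.39 (0.443). Jak2, the kinase bound to the receptor, was at 0.13 ± 0.20 (edgeR adjusted p = 0.846), and Igf1r, the receptor of IGF1, at -0.11 ± 0.64 (0.974).

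Patterns across all 14 libraries were compared by the root mean square difference in centred log2 CPM, which is small where profiles coincide. The features most like Igfals were Slco2b1 (0.527), Lrit1 (0.554) and Slc17a8 (0.580), where Igfals itself had an SD of 1.62. Those most like Igfbp1 were Cidec (0.904), Glp2r (1.02) and Phgdh (1.04), against its own SD of 2.53.

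Single markers of other cell types differed between tumours and normal liver. EdgeR called 1 of 7 sinusoidal, 1 of 6 continuous endothelial, 1 of 10 stellate and fibroblast and 1 of 5 tested cholangiocyte markers, and 0 of 8 hepatocyte, 0 of 10 Kupffer cell and 0 of 9 monocyte and macrophage markers, against 2.32% of features. Lyve1 (sinusoidal endothelium, log2 fold change 3.09 ± 0.74), Cd34 (continuous endothelium, 3.49 ± 0.82), Tagln (stellate cells and fibroblasts, 2.36 ± 0.54) and Tspan8 (cholangiocytes, 5.97 ± 1.43) were higher in tumours, with edgeR adjusted p from 0.0397 to 0.0443. In Grow, Dcn of fibroblasts was lower (-2.36 ± 0.39, edgeR adjusted p = 0.0178). The summed level of the 10 stellate and fibroblast markers was 112 to 196 CPM in Grow, 163 to 1269 CPM in Regress and 223 to 374 CPM in normal livers, so that Grow lay below all normal livers in the sum although Tagln was higher over all tumours. That of the 7 cholangiocyte markers, of which Cldn4 was at 0 in all normal livers, was 30.9 to 613 CPM in Grow, 30.1 to 509 CPM in Regress and 19.2 to 27.7 CPM in normal livers. The 7 sinusoidal endothelial markers summed to 106 to 324 CPM in Grow, 178 to 215 CPM in Regress and 153 to 216 CPM in normal livers, and the 6 of continuous endothelium to 51.5 to 109 CPM in Grow, 39.0 to 115 CPM in Regress and 43.6 to 81.5 CPM in normal livers. The 10 Kupffer cell markers summed to 98.1 to 959.7 CPM in tumours and 385 to 1125 CPM in normal livers, and the 9 of recruited monocytes and macrophages to 128 to 813 CPM in tumours and 93.7 to 419.9 CPM in normal livers. Spp1 was in both the macrophage and the cholangiocyte list, so these sums share a gene. The part of these cells in the levels of Igfbp1, Igfals, Igf1 and Ghr was not tested.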

How the data were processed

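Snap-frozen tissue was sequenced with a library kit that keeps no strand information, so overlapping antisense transcripts are counted together. The authors deposited estimated counts (expected counts) for 35230 RefSeq transcript rows, per the file headers. Tools listed in the submitters' processing notes are Salmon 0.3.1 and edgeR 3.14.0, with build mm9. There was 1 further column, which held no values and was not used.

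Rows were matched to symbols through a RefSeq table of GRCm38.p6 (26077 rows) or GENCODE M21 (148). The 9005 unmatched rows (3.52% to 12.1% of a library) stayed features of their own, and sums were rounded to whole numbers. Testing used edgeR 4.0.16 (R 4.3.3) with the quasi-likelihood method, TMM, robust dispersion and filterByExpr, over 12300 features, in 1 model of all 14 samples and 3 groups. Tumours were set against normal liver by averaging the Grow and Regress coefficients. TMZ had its own coefficient next to group, and SAHA divided Grow in 2. Calls needed a Benjamini-Hochberg adjusted p under 0.05. CPM uses the TMM-adjusted total, log2 CPM a prior count of 2, and each SE was derived from the fold change and its F statistic. DESeq2 1.42.0 and limma-voom (limma 3.58.1) were alternatives, beside other normalizations, filters, sample sets and leaving out each library. The code was tested on simulated data.

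The 10 genes are named in every comparison, genes of the wider and cell type lists where called, and transcripts from 5% of a gene's counts. Further genes of the wider lists were named by choice, for their values or their role, though edgeR called none of them. The 3 features nearest in pattern are named for called genes. Genes and lists were chosen with earlier results of these data known. Depth ranged from 4707063 to 13394301 counts per library, and the lowest Cish value rested on 18 reads.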

Additional observations from a re-analysis of the deposited data

Results flagged for a closer look

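In each group of each gene, the gap of the highest or lowest library to its nearest neighbour was set against the range of the group. Of 30 such groups 3 stood out at the 95% level. The rule was applied to CPM and not to log values, and its limits assume a symmetric, bell-shaped spread. How many groups would stand out by chance is therefore not known. Igfbp3 was at 52.6 CPM in Grow 1, given DMSO, against 10.3 to 18.4 CPM in the other Grow tumours. Cish was at 33.9 CPM in Grow 2, given SAHA with TMZ, against 2.06 to 10.98 CPM in the other Grow tumours. Socs2 was at 91.6 CPM in Normal 2, against 5.44 to 14.8 CPM in the other normal livers. Normal 2 also held the highest normal value of Cish (21.0 CPM) and, chosen after its value was seen, of Cux2, which in mouse liver is known as a female-biased gene (10.9 CPM, against 0.15 to 0.90 CPM in the other normal livers).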

How the results depend on the processing

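Replicate numbers did not pair the samples. Of 12 same-numbered pairs, 2 correlated above 0.1 in their deviations from the group means (range -0.52 to 0.20). With a replicate block, 0 features and 0 of the 10 genes were called in each of the 6 comparisons. Counts of features called are given below in the order tumours, Grow and Regress against normal liver, Regress against Grow, TMZ and SAHA. By edgeR the counts were 285, 217, 3, 0, 0 and 0. DESeq2 gave 1055, 1014, 712, 31, 464 and 52, and limma-voom 127, 93, 0, 0, 2 and 0. DESeq2 size factors gave 35 for Regress, and no low-count filter gave 1 for TMZ. Summing Grow 3 and 4 gave 113 for Grow and 0 for Regress. Without both samples of the shared code there were 0, 18 and 0 against normal liver. Tumours with no drug gave 941, 488 and 511 there, drugs as covariates 876 for tumours and 445 for Regress, and removing the length trend 665, 553, 153 and, for TMZ, 84.

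The 10 genes had 2, 1, 0, 0, 0 and 0 calls by edgeR, and 3, 4, 2, 0, 3 and 0 by DESeq2. For tumours the count was 1 with limma-voom, DESeq2 size factors, no filter or Grow 3 and 4 summed, 0 without the shared code, and 4 with no drug or drugs as covariates. For Grow it was 0 without the shared code. For Regress it was 3 with no drug, 2 with covariates and 1 with the length trend removed. Leaving out 1 library gave 0 to 4 calls for tumours, 0 to 2 for Grow, 0 to 3 for Regress and 0 to 1 for TMZ, and 0 to 991, 4 to 651, 0 to 667, 0 to 1249, 0 to 737 and 0 to 0 features in the order above. The 991 and 667 came without Regress 1, the 651 and 1249 without Regress 4, and the 737 without Grow 2.

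Of 1400 log2 fold changes under alternatives, 1256 kept sign and side of the threshold, 32 lost a call, 28 gained one and 84 changed sign, none of them a called value. The cause was not tested. With limma-voom the sign changed for Cish (-0.24), Igfbp2 (-0.41) and Socs2 (0.058) in Grow against normal, Igfbp3 (-0.029) and Socs2 (0.27) in Regress against normal, Socs2 in tumours (0.16), Igf1 in Regress against Grow (-0.11) and Igfbp1 for SAHA (-0.016). With the replicate block it changed for Igfbp1 (-3.11) and Igfbp4 (-0.38) for SAHA, Igfbp2 in Grow (-0.85) and tumours (-0.11), Socs2 in Grow (0.26), Regress (0.38) and tumours (0.32), Igfbp4 in Regress against Grow (-0.047) and Stat5b for TMZ (0.086). With drugs as covariates it changed for Cish in Grow (-1.999), Regress (-0.78) and tumours (-1.39), Igfbp3 in tumours (0.061), and Ghr (-0.076) and Igf1 (-0.069) in Regress against Grow. With no drug the same 6 were -1.998, -0.76, -1.38, 0.20, -0.42 and -0.52. With the length trend removed it changed for Igf1 (-0.32) and Stat5b (0.015) in Regress against Grow, Igfbp4 (0.062) and Stat5b (0.16) for TMZ, and Stat5b in Regress (0.039) and tumours (0.031). Without the shared code it changed for Cish in Grow (-0.25) and tumours (-0.064), Igfbp3 in Regress (-0.086), and Igfbp4 in Regress against Grow (-0.20) and for TMZ (0.18). With Grow 3 and 4 summed, Stat5b for TMZ was 0.024.

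Leaving out 1 library gave ranges that crossed 0. Against normal liver, Cish ran from -0.71 to 0.66 in Grow, -0.23 to 0.84 in Regress and -0.23 to 0.75 in tumours, and Socs2 from -0.95 to 1.01, -1.02 to 1.39 and -0.81 to 1.202 in the same order. Stat5b ran from -0.077 to 0.43, -0.44 to 0.064 and -0.26 to 0.25, Igfbp2 in Grow from -0.48 to 0.42, and Igfbp3 in Regress from -0.48 to 0.32. In Regress against Grow, Cish ran from -0.30 to 0.95, Ghr from -0.47 to 0.67, Igf1 from -0.36 to 0.44, Igfbp4 from -0.20 to 0.25 and Socs2 from -0.42 to 0.69. For TMZ, Igfbp4 ran from -0.14 to 0.18 and Stat5b from -0.29 to 0.059. For SAHA, Igf1 ran from -0.0049 to 1.06, Igfbp1 from -0.99 to 1.37, Igfbp2 from -1.70 to 0.23 and Stat5b from -0.20 to 0.67.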
